A study of Mus musculus with 8 samples.

Results

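A set of 9 genes, grouped as TH2 regulators and their partners, was examined in RNA-seq data from EL4 cells, a mouse T lymphoma line. The genes were chosen by name as Maf, Gfi1, Nfil3, Zfpm1, Bhlhe40, Bhlhe41, Pparg, Pdlim4 and Spint2, and each was found among the 54146 genes with deposited values. Of these 9, 7 passed the filter on low counts and Bhlhe41 and Pparg did not. All cells had been stimulated for 4 h with the phorbol ester PMA (50 ng/ml) and ionomycin (1 μM). The GFP + Plum line carried both control fluorescent proteins. The T-bet + Plum line carried FLAG-T-bet and Plum, the GFP + GATA3 line carried GFP and HA-GATA3, and the T-bet + GATA3 line carried FLAG-T-bet and HA-GATA3. For how the 4 lines were made the methods refer to earlier work. Each line was represented by 2 libraries, which are harvests of the same line. The p-values therefore measure the spread between harvests and not between independently made lines. A property of a single line and an effect of the factor it carries cannot be told apart within 1 comparison.

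T-bet, encoded by Tbx21, is the lineage-determining transcription factor of TH1 cells, and GATA3 is that of TH2 cells. TH2 cells also depend on further regulators. MAF binds the Il4 promoter and drives IL-4 production, GFI1 is a zinc finger repressor that favours TH2 cell expansion, and PPARγ is a lipid-activated nuclear receptor needed for full TH2 effector function. NFIL3 is a basic leucine zipper protein that tunes cytokine genes. BHLHE40 and BHLHE41 are closely related basic helix-loop-helix repressors. FOG1, the product of Zfpm1, binds the amino-terminal zinc finger of GATA proteins and restrains GATA3. Pdlim4 encodes a PDZ and LIM domain protein of the actin cytoskeleton, and Spint2 encodes a membrane-bound inhibitor of serine proteases.

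The libraries held between 8038565 and 16003519 estimated counts. Levels in CPM (counts scaled to the library size) below use library sizes scaled by TMM, and TPM, in which counts are also divided by transcript length, are the deposited values summed per gene. Tbx21 was between 129 and 160 CPM in the 4 libraries with FLAG-T-bet and between 1.78 and 3.59 CPM in the other 4. Gata3 was between 165 and 326 CPM in the 4 libraries with HA-GATA3 and between 25.8 and 53.3 CPM in the others. It was lower in T-bet + GATA3 (184 ± 27.4 CPM, SD, n = 2) than in GFP + GATA3 (304 ± 30.0 CPM), a difference that did not pass the test (FDR = 0.0789). In T-bet + Plum against GFP + Plum, Gata3 had a log2 FC of -0.61, which did not pass either (edgeR FDR = 0.146). The T-bet effect on Gata3 averaged over GATA3 states was -0.67 on the log2 scale and did pass (edgeR FDR = 0.0174). In the lines with HA-GATA3, counts of the introduced and the endogenous gene were not told apart, so this average may mix both. The paper reports endogenous Gata3 in EL4 cells, so the GATA3 comparisons set added GATA3 against an endogenous level. Each of 7 T cell markers reached at least 1 TPM, with a sum between 561 and 911 TPM. All 5 B cell, 4 adipocyte and 4 epithelial markers stayed below 1 TPM in every library, as did 5 of 6 myeloid markers (sum between 2.50 and 5.26 TPM). Of 4 NK cell markers, 3 stayed below 1 TPM, and Nkg7, a cytotoxic granule gene, rose with T-bet, which took the sum from at most 0.478 TPM without T-bet to between 16.9 and 81.6 TPM with it. Of the 7 T cell markers, Cd2 and Cd5 rose with T-bet in both backgrounds, and Cd3d and Lck in T-bet + Plum against GFP + Plum. Cd3e, Cd3g and Thy1 were not called in either, and Thy1 had log2 FCs of -0.41 and -0.20. The part of these changes in the results below was not tested.

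Members of the set did not move in one direction with T-bet. Maf and Pdlim4 fell, Gfi1 and Bhlhe40 rose, and Nfil3, Zfpm1 and Spint2 did not pass the test. In T-bet + Plum against GFP + Plum, 4 of the 7 tested members passed an FDR threshold of 0.05 in edgeR's quasi-likelihood test and are referred to as called, 2 up and 2 down, against 6.2% of the 14791 genes tested. The same 4 genes were called, in the same directions, in T-bet + GATA3 against GFP + GATA3, in which 5.77% of all genes were called. They were also called in T-bet + GATA3 against GFP + Plum (4.87% of all genes) and for the T-bet effect averaged over GATA3 states (15.2%). The members were chosen with earlier results of these data known, so nothing about the set is drawn from these shares. The median log2 fold change (FC) of the 7 members was 0.28 in T-bet + Plum against GFP + Plum and -0.10 in T-bet + GATA3 against GFP + GATA3, beside 0.011 for all genes in each comparison. T-bet + GATA3 against GFP + Plum shares libraries with the other comparisons and is not separate evidence.

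No tested member was called for GATA3. In GFP + GATA3 against GFP + Plum, 0 of 7 were called by edgeR and 0 by DESeq2, and 2 had an unadjusted p below 0.05. Of all genes, 0.0203% were called and 3.7% had an unadjusted p below 0.05. In T-bet + GATA3 against T-bet + Plum, 0 were called by either tool and 1 had an unadjusted p below 0.05 (0.0338% and 3.78% of all genes). For the GATA3 effect averaged over T-bet states these counts were 0, 0 and 2 (0.0608% and 4.96% of all genes). For the interaction of T-bet and GATA3, which asks whether the effect of one factor depends on the other, they were 0, 0 and 1. edgeR called 0% of all genes for the interaction, where 381 genes (2.58%) had an unadjusted p below 0.05. DESeq2 called 15 genes. The GATA3 comparisons thus gave few calls anywhere in the genome.

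**Figure D1:**
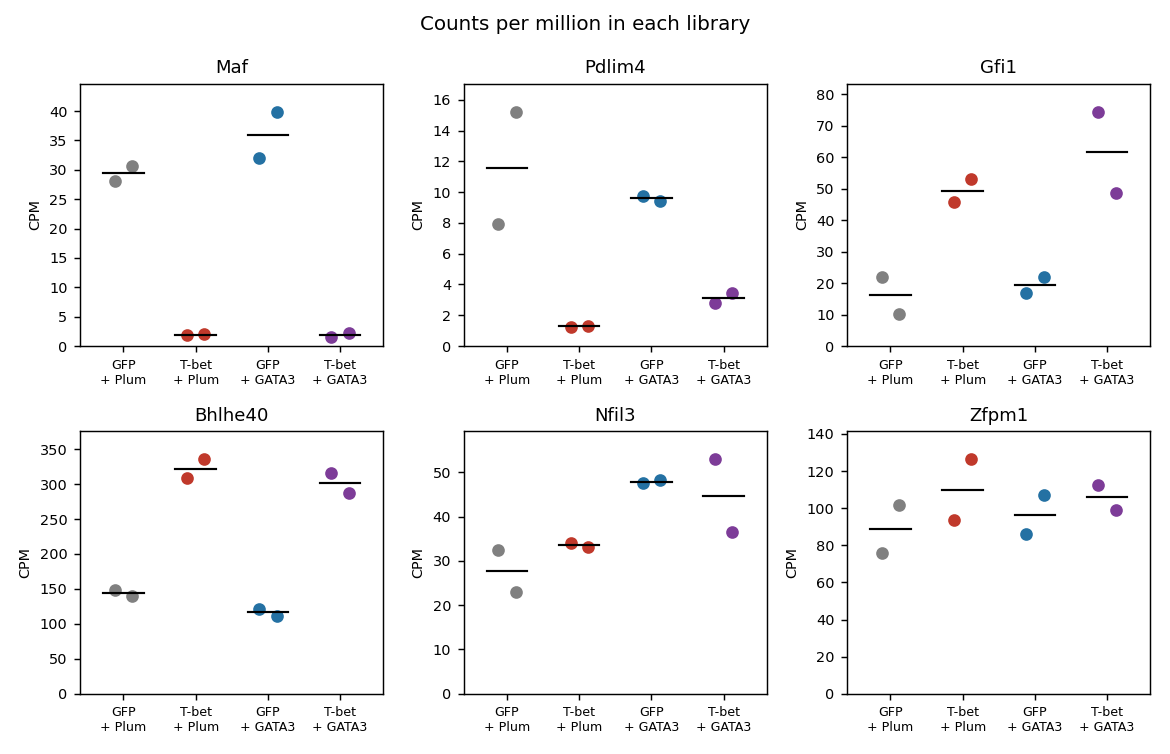
CPM of 6 members (y axis, from 0) in the 4 EL4 lines (x axis). Each point is a library, replicate 1 on the left and replicate 2 on the right, and the bar is the mean of the line. Maf and Pdlim4 were lower, and Gfi1 and Bhlhe40 higher, in every library with T-bet than in any without it, whereas Nfil3 and Zfpm1 overlapped. The share of all genes that separate in this way was not counted.

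Levels between genes were compared in TPM, which accounts for transcript length. In GFP + Plum the highest members were Zfpm1 (67.8 ± 5.49 TPM, SD, n = 2) and Bhlhe40 (63.7 ± 10.0 TPM), whose libraries overlapped. Nfil3 (15.6 ± 4.96 TPM), Pdlim4 (11.5 ± 4.40 TPM), Gfi1 (7.65 ± 4.67 TPM) and Maf (5.58 ± 0.101 TPM) followed, and each of these overlapped with its neighbour in the order. Spint2 was at 0.519 ± 0.330 TPM. In T-bet + Plum the order was Bhlhe40 (137 ± 4.24 TPM), Zfpm1 (74.1 ± 15.1 TPM), Gfi1 (20.2 ± 2.26 TPM), Nfil3 (18.2 ± 0.424 TPM), Pdlim4 (1.63 ± 0.475 TPM), Maf (0.329 ± 0.0202 TPM) and Spint2 (0.222 ± 0.0138 TPM), and no neighbours in that order overlapped. Bhlhe40 thus stood alone at the top of the set when T-bet was present, and Gfi1 had moved above Pdlim4 in the order. For Zfpm1, between 36.5 and 49.6 TPM came from a short processed transcript of 559 nucleotides, and the main coding transcript was between 19.9 and 31.5 TPM.

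Maf (ENSMUSG00000055435.6, minus strand of chromosome 8 of GRCm38, 115682942 to 115707794) showed the largest change of the set. It was at 28.2 and 30.7 CPM in GFP + Plum and at 32.1 and 39.9 CPM in GFP + GATA3. With T-bet it was at 1.87 and 2.05 CPM in T-bet + Plum and at 1.51 and 2.20 CPM in T-bet + GATA3. All 4 libraries with T-bet were therefore far below all 4 without it, whether or not HA-GATA3 was present. Maf fell 14.8-fold in T-bet + Plum against GFP + Plum (log2 FC -3.89, approximate standard error 0.225, edgeR FDR = 8.448e-05). It fell 18.9-fold in T-bet + GATA3 against GFP + GATA3 (log2 FC -4.24, standard error 0.225, edgeR FDR = 7.749e-05). In bulk RNA, fewer expressing cells and less RNA per cell cannot be told apart. The residual signal was not at 0, with between 14 and 33 estimated counts in each library with T-bet. HA-GATA3 alone gave a log2 FC of 0.29, which did not pass the test (95% interval -0.12 to 0.70). The interaction was -0.35 (95% interval -1.09 to 0.39), so a difference between the falls anywhere within that range remains compatible with these libraries. Of its 2 annotated transcripts, the longer one of 6360 nucleotides held between 68.7% and 100.0% of the estimated counts of Maf.

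Pdlim4 (ENSMUSG00000020388.12, minus strand of chromosome 11, 54054928 to 54069014) also fell with T-bet. It was at 7.92 and 15.2 CPM in GFP + Plum and at 1.24 and 1.30 CPM in T-bet + Plum. In the lines with HA-GATA3 it was at 9.76 and 9.45 CPM without T-bet and at 2.81 and 3.46 CPM with it. The T-bet libraries lay below the others in both backgrounds, and the T-bet + GATA3 libraries lay above the T-bet + Plum libraries. Pdlim4 fell 9.0-fold in T-bet + Plum against GFP + Plum (log2 FC -3.17, standard error 0.373, edgeR FDR = 0.00263) and 3.03-fold in T-bet + GATA3 against GFP + GATA3 (log2 FC -1.60, standard error 0.335, edgeR FDR = 0.0303).
The latter call was not kept without either T-bet + Plum library (FDR = 0.0608 and 0.0616), either GFP + GATA3 library (FDR = 0.130 and 0.140) or either T-bet + GATA3 library (FDR = 0.171 and 0.0837). The difference between these falls had a log2 size of 1.57 (95% interval 0.42 to 2.72). The interval lay above 0, but the difference did not pass adjustment over all genes (edgeR FDR = 1.0). In T-bet + GATA3 against T-bet + Plum, Pdlim4 had a log2 FC of 1.30 (95% interval 0.40 to 2.20, edgeR FDR = 1.0). In GFP + GATA3 against GFP + Plum its log2 FC was -0.27 (95% interval -0.98 to 0.44). The counts behind the low values were 10 and 19 in T-bet + Plum and 26 and 52 in T-bet + GATA3.

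Gfi1 (ENSMUSG00000029275.18, minus strand of chromosome 5, 107716657 to 107726036) rose with T-bet. It was at 22.0 and 10.2 CPM in GFP + Plum and at 45.7 and 53.2 CPM in T-bet + Plum. With HA-GATA3 it was at 16.9 and 21.8 CPM without T-bet and at 74.5 and 48.8 CPM with it. The lowest library with T-bet was above the highest without it, although the replicates of GFP + Plum and of T-bet + GATA3 differed widely. Gfi1 rose 3.07-fold in T-bet + Plum against GFP + Plum (log2 FC 1.62, standard error 0.351, edgeR FDR = 0.0344) and 3.17-fold in T-bet + GATA3 against GFP + GATA3 (log2 FC 1.66, standard error 0.351, edgeR FDR = 0.0310). The averaged effect was 1.64 (standard error 0.248, edgeR FDR = 0.00369).
Without replicate 1 of GFP + Plum the log2 FC in T-bet + Plum against GFP + Plum was 2.27, and without replicate 2 it was 1.18. With offsets for average transcript length the log2 FCs of the single comparisons were 1.49 and 1.51 by edgeR, whose FDRs of 0.0608 and 0.0587 were above the threshold. DESeq2 with the same offsets kept both calls (log2 FC 1.48 and 1.51, FDR = 0.000705 and 0.000474). The first of the edgeR calls was not kept without either T-bet + Plum library (FDR = 0.112 and 0.194), either GFP + GATA3 library (FDR = 0.0508 and 0.0510) or replicate 2 of GFP + Plum (FDR = 0.0789). The second was not kept without either T-bet + Plum library (FDR = 0.0625 and 0.0645), either GFP + GATA3 library (FDR = 0.186 and 0.126) or replicate 1 of T-bet + GATA3 (FDR = 0.170). HA-GATA3 alone gave a log2 FC of 0.27 (95% interval -0.54 to 1.08), and the interaction was 0.044 (95% interval -1.08 to 1.17).

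Transcripts of Gfi1 begin mainly at a pair of annotated starts 1462 bases apart, and the sequences around both are shown because each had its own counts. The windows below run from 250 bases before to 50 bases after a start in RefSeq (GRCm38.p6) and are printed 5′ to 3′ on the minus strand, together with the window of Pdlim4, which fell.
Gfi1 distal start, chr5:107725756-107726055, minus strand: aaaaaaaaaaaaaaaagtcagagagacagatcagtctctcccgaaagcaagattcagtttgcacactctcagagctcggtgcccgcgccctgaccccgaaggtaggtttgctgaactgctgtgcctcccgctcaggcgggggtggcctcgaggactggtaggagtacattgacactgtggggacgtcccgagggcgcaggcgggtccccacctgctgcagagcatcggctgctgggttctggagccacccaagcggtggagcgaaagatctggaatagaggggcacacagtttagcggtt
Gfi1 proximal start, chr5:107724294-107724593, minus strand: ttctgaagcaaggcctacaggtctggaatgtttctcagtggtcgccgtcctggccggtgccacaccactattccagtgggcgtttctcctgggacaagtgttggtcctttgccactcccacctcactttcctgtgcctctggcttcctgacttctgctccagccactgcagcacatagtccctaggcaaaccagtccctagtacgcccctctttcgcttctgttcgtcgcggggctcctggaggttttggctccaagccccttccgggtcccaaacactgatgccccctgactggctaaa
Pdlim4, chr11:54068968-54069267, minus strand: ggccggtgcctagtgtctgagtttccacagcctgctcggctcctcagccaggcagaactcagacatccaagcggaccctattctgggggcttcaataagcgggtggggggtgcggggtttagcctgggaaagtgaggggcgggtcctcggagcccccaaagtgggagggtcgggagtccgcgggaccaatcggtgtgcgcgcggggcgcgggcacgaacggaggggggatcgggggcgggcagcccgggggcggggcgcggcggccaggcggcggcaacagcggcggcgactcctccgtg
Bhlhe41, chr6:145865371-145865670, minus strand: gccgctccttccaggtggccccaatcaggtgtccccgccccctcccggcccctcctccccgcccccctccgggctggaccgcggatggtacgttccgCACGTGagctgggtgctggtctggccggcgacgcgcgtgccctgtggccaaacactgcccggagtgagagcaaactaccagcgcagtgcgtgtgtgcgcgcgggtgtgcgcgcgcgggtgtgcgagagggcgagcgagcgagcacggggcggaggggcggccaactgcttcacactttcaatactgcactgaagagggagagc
The window of Bhlhe41 is added because it alone of the 10 windows found for members held the E-box bound by BHLHE40 and BHLHE41, marked in capitals. That motif, CACGTG, occurred in 7.15% of 32851 promoter windows of the same length. A GATA motif (AGATAA on either strand) occurred in 11.2% of all windows and in 0 of the 10 windows of members. A T-box motif (GGTGTGA on either strand) occurred in 3.98% of all windows and in 1 of 3 windows of Pparg, and in none of the others. These letters are a description of the windows only. No window was found for Maf or Bhlhe40, so neither gene was searched for these motifs.

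Both starts of Gfi1 had higher estimated counts with T-bet. For the distal start, whose transcripts begin at position 107725805 of chromosome 5, the 4 libraries with T-bet were between 17.6 and 41.5 CPM and the 4 without it between 4.86 and 15.6 CPM. For the proximal start at 107724343 these ranges were 22.4 to 31.7 CPM and 4.77 to 12.0 CPM. Neither pair of ranges overlapped. The proximal start held 54.7% and 49.0% of the Gfi1 counts in GFP + Plum and 28.8% and 21.9% in GFP + GATA3, and between 42.1% and 60.4% in the libraries with T-bet. The share of the proximal start was thus lowest in both GFP + GATA3 libraries, a difference that was not tested. A short transcript from another start was at 1.40 CPM or less. These transcripts share exons, so the split between starts rests on kallisto's assignment of shared fragments.

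**Figure D2:**
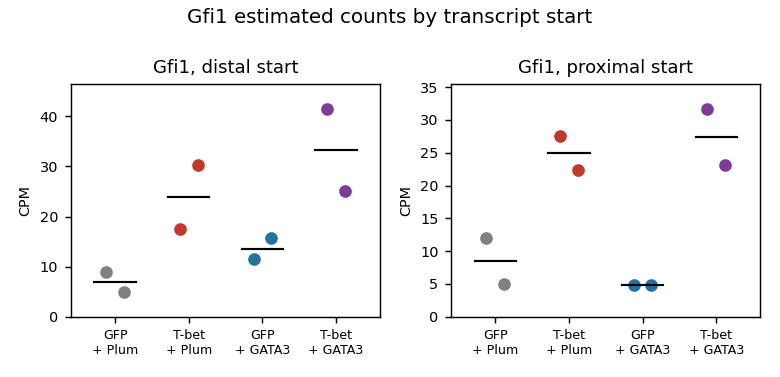
Estimated counts of Gfi1 transcripts from the distal (left) and proximal (right) start, as CPM (y axis, from 0), in the 4 lines (x axis). Points are libraries and bars are means of 2. From both starts, every library with T-bet was above every library without it. How many starts of other genes separate in this way was not counted.

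Bhlhe40 (ENSMUSG00000030103.11, plus strand of chromosome 6, 108660629 to 108666925) rose with less spread between replicates than Gfi1. It was at 148 and 140 CPM in GFP + Plum and at 309 and 335 CPM in T-bet + Plum. It was at 122 and 112 CPM in GFP + GATA3 and at 315 and 287 CPM in T-bet + GATA3. Libraries with and without T-bet were well apart, and the 4 libraries with T-bet lay close together. Bhlhe40 rose 2.24-fold in T-bet + Plum against GFP + Plum (log2 FC 1.16, standard error 0.117, edgeR FDR = 0.00137) and 2.58-fold in T-bet + GATA3 against GFP + GATA3 (log2 FC 1.37, standard error 0.117, edgeR FDR = 0.000627). In GFP + GATA3 against GFP + Plum its log2 FC was -0.30 (95% interval -0.57 to -0.036, edgeR FDR = 1.0). The interaction was 0.20 (95% interval -0.17 to 0.58). The coding transcript of 3113 nucleotides held between 87.7% and 92.7% of the counts.

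Bhlhe41 (ENSMUSG00000030256.11, minus strand of chromosome 6, 145858243 to 145865558), the close relative of Bhlhe40, was not detected beyond 1 estimated count in replicate 2 of T-bet + GATA3. It was at 0 in the other 7 libraries, which allows up to 3 counts, or between 0.188 and 0.373 CPM at these depths (counting error only). Pparg (ENSMUSG00000000440.12, plus strand of chromosome 6, 115360951 to 115490399) had 1 estimated count in replicate 1 of GFP + Plum and of GFP + GATA3 and 0 elsewhere. Neither gene was detectable at this depth in a way that would allow a comparison. Spint2 (ENSMUSG00000074227.12, minus strand of chromosome 7, 29256323 to 29281912) had between 2 and 12 estimated counts per library, or between 0.200 and 0.757 CPM. Its averaged T-bet effect was -0.63 on the log2 scale with a 95% interval of -1.91 to 0.64, too wide to bear on its direction.

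Nfil3 (ENSMUSG00000056749.7, minus strand of chromosome 13, 52967209 to 52981073) had the lowest FDRs of the tested members in GFP + GATA3 against GFP + Plum and for the averaged GATA3 effect. It was at 32.4 and 23.0 CPM in GFP + Plum and at 47.5 and 48.2 CPM in GFP + GATA3. With T-bet it was at 34.1 and 33.2 CPM in T-bet + Plum and at 52.9 and 36.5 CPM in T-bet + GATA3. In each pair of lines both libraries with HA-GATA3 were above both without it. How many of all genes separate in this way was not counted. The log2 FC was 0.79 in GFP + GATA3 against GFP + Plum (95% interval 0.30 to 1.28, edgeR FDR = 0.702). It was 0.40 in T-bet + GATA3 against T-bet + Plum (95% interval -0.089 to 0.90, edgeR FDR = 1.0) and 0.60 averaged over T-bet states (95% interval 0.25 to 0.94, edgeR FDR = 0.455). None of these passed adjustment over all genes in the main fit. Without a filter on low counts the first and the last were called (FDR = 0.00965 and 0.00193). In that setting 293 and 373 of 30928 genes were called, against 3 and 9 of 14791 in the main fit. For T-bet, the averaged log2 effect on Nfil3 was 0.089 (95% interval -0.26 to 0.44), which turned to -0.028 on the log2(TPM + 1) scale.

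Zfpm1 (ENSMUSG00000049577.15, plus strand of chromosome 8, 122282141 to 122337251) was measured at 75.9 and 101 CPM in the libraries of GFP + Plum and at 93.8 and 126 CPM in those of T-bet + Plum. With HA-GATA3 it was at 86.2 and 107 CPM without T-bet and at 113 and 99.1 CPM with it. The 4 lines overlapped. Its averaged T-bet effect was 0.22 on the log2 scale (95% interval -0.11 to 0.55, edgeR FDR = 0.355) and its averaged GATA3 effect 0.033 (95% interval -0.29 to 0.36, FDR = 1.0), so changes beyond these intervals were not seen. An annotated coding gene on the same strand, Gm20388, overlaps Zfpm1 and was between 46.0 and 69.1 CPM, and fragments from the shared sequence could be assigned to either.

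**Figure D3:**
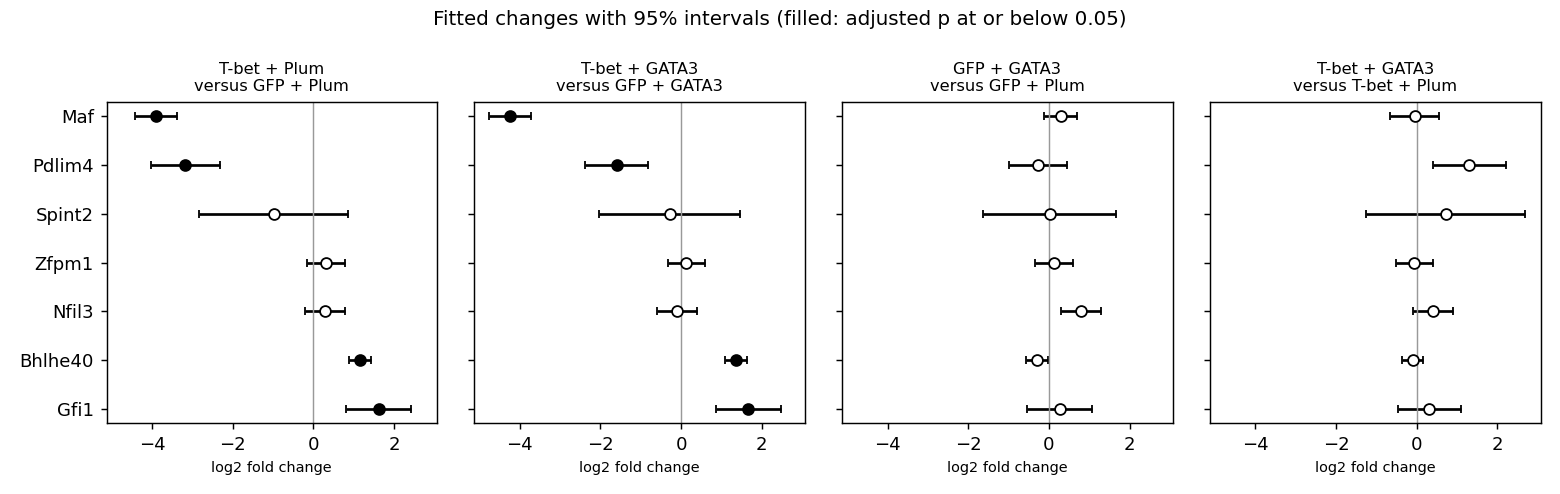
Log2 FC (x axis) of the 7 tested members (y axis) in the 4 comparisons that differ by 1 factor, with 95% intervals from edgeR. Filled points passed an FDR of 0.05. Filled points appear in the T-bet panels for Maf, Pdlim4, Bhlhe40 and Gfi1, and every point in the GATA3 panels is open.

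The split by T-bet was also tested on each member's level over the 8 libraries, 4 with and 4 without T-bet, with a two-sided exact permutation test on log2(CPM + 0.5). For Maf (difference -3.78), Pdlim4 (-2.09), Gfi1 (1.66) and Bhlhe40 (1.26) the exact p was 0.0286, the smallest that this design can give. For Nfil3 (0.088, exact p = 0.686), Zfpm1 (0.22, exact p = 0.200), Spint2 (-0.28, exact p = 0.314), Pparg (-0.11, exact p = 0.429) and Bhlhe41 (0.045, exact p = 1) it was not reached. These 9 exact p-values are unadjusted. In edgeR, 29.2% of all genes had an unadjusted p below 0.05 for the averaged T-bet effect. The smallest exact p marks full separation of the libraries with T-bet from those without. The share of all genes that separate in this way was not counted. The test treats the 8 libraries as exchangeable, although they are harvests of 4 lines.

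The genes whose log2 CPM followed each called member most closely over the 8 libraries were taken from 8940 protein-coding genes, with Pearson's r as a description, since the same 4 libraries carry T-bet for every gene. For Maf these were Slc30a4 (a zinc transporter, r = 0.99), Wif1 (a secreted WNT inhibitor, r = 0.989) and Ccdc22 (r = 0.988). For Pdlim4 they were Cpa3 (mast cell carboxypeptidase A, r = 0.993), Vegfb (r = 0.988) and Tor1aip2 (r = 0.987). For Bhlhe40 they were Ipcef1 (r = 0.996), Dusp2 (a nuclear MAP kinase phosphatase, r = 0.995) and Dclk1 (r = 0.995). For Gfi1 they were RP23-11F9.3 (r = 0.991), AC113182.4 (r = 0.985) and Golim4 (r = 0.984), the first 2 being clone-based names in the files.

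Relatives and partners of the members were examined as 9 lists, of which 77 genes were tested. In T-bet + Plum against GFP + Plum edgeR called 11 of these (14.3%, beside 6.2% of all genes), and in T-bet + GATA3 against GFP + GATA3 it called 9 (11.7%, beside 5.77%). The genes were listed with earlier results of these data known, so nothing about the lists is drawn from these shares. Of 16 paralogues, 9 were tested, and 1 fell in each T-bet comparison. Maff, a small MAF protein without a transactivation domain, fell from 14.5 ± 0.0778 to 6.67 ± 1.69 CPM in T-bet + Plum against GFP + Plum (log2 FC -1.10, edgeR FDR = 0.0200). In T-bet + GATA3 against GFP + GATA3 its log2 FC was -0.75 (FDR = 0.0770). Pdlim2, which promotes degradation of STAT4 and NF-κB p65, fell in T-bet + GATA3 against GFP + GATA3 (28.5 ± 1.43 to 17.8 ± 2.85 CPM, log2 FC -0.67, edgeR FDR = 0.0460) and had a log2 FC of 0.087 in T-bet + Plum against GFP + Plum (FDR = 0.822). The median log2 FC of the tested paralogues was -0.23 and -0.37 in these comparisons.

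Of 15 other regulators of the TH2 lineage, 14 were tested. Il4ra, the IL-4 receptor α chain, rose 3.74-fold in T-bet + Plum against GFP + Plum (7.05 ± 0.167 to 26.3 ± 3.09 CPM, edgeR FDR = 0.00157) and 3.73-fold in T-bet + GATA3 against GFP + GATA3 (6.38 ± 1.03 to 24.0 ± 4.14 CPM, edgeR FDR = 0.00176). Rbpj, the DNA-binding effector of Notch, fell 1.71-fold in both (FDR = 0.00954 and 0.00903), from 339 ± 9.62 to 198 ± 23.3 CPM and from 393 ± 15.3 to 230 ± 4.38 CPM. Junb, an AP-1 protein that acts at the Il4 locus, rose in T-bet + Plum against GFP + Plum (60.9 ± 2.92 to 91.0 ± 6.60 CPM, edgeR FDR = 0.0304) and was at 66.8 ± 5.86 and 92.7 ± 0.0990 CPM in GFP + GATA3 and T-bet + GATA3 (FDR = 0.0641). In all, 2 rose and 1 fell in the first comparison and 1 rose and 1 fell in the second, with median log2 FCs of 0.35 and 0.26.

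FOG1 and GFI1 act through partner proteins. Of 15 FOG1 partners, which are subunits of the NuRD complex and GATA factors, 13 were tested and none was called by edgeR in either T-bet comparison, with medians of -0.13 and -0.034. The histone-binding subunit Rbbp4 was the 1 of them with an unadjusted p below 0.05 in T-bet + Plum against GFP + Plum (log2 FC -0.45, edgeR FDR = 0.234), and 0 had one in T-bet + GATA3 against GFP + GATA3. Of 7 GFI1 corepressors, 7 were tested and Ehmt2, a histone H3 lysine methyltransferase, fell. It went from 22.4 ± 0.969 to 10.9 ± 2.68 CPM in T-bet + Plum against GFP + Plum (log2 FC -1.05, edgeR FDR = 0.0150) and from 30.8 ± 1.41 to 14.5 ± 0.00707 CPM in T-bet + GATA3 against GFP + GATA3 (log2 FC -1.09, edgeR FDR = 0.0121). The medians of that list were -0.19 and -0.25. For the averaged T-bet effect, 3 of the 7 were called down, beside 6.61% of all genes.

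Among 16 circadian clock genes, which the BHLHE40 and NFIL3 repressors are known to act on, 15 were tested. The medians of the list were 0.30 in T-bet + Plum against GFP + Plum and 0.20 in T-bet + GATA3 against GFP + GATA3. For the averaged T-bet effect, 1 of the 15 was called up and 3 down, beside 8.55% and 6.61% of all genes.

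Although Pparg itself was not detected, partners and textbook targets of PPARγ were present. Of 8 partners, 7 were tested, and the coactivator Ppargc1b rose in T-bet + Plum against GFP + Plum (28.2 ± 5.80 to 48.4 ± 1.39 CPM, edgeR FDR = 0.0358), with a log2 FC of 0.68 in the GATA3 background (FDR = 0.0639). The median log2 FC of the partners was 0.029 and -0.11. Of 10 targets, 8 were tested, and 1 rose and 2 fell in each T-bet comparison. The fatty acid binding protein gene Fabp4 fell from 6.44 ± 1.04 to 1.53 ± 0.129 CPM (log2 FC -2.08, edgeR FDR = 0.00957) and from 6.05 ± 1.74 to 1.17 ± 0.129 CPM (log2 FC -2.34, FDR = 0.00638). Fabp5 fell from 40.3 ± 5.68 to 19.6 ± 0.0707 CPM (edgeR FDR = 0.00622) and from 62.6 ± 5.83 to 18.6 ± 0.262 CPM (FDR = 0.000606). The fatty acid transporter Cd36 rose from 1.28 ± 0.731 to 28.6 ± 2.56 CPM (edgeR FDR = 0.000376) and from 1.34 ± 0.00566 to 23.5 ± 4.89 CPM (FDR = 0.000601). The list medians were -0.22 and -0.013.

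Of 6 genes known as MAF targets in T cells, 4 were tested, and 1 of them, Il22, fell in both T-bet comparisons. Il22 had 12 and 14 counts in GFP + Plum and 17 and 56 in GFP + GATA3, and 0 in all 4 libraries with T-bet. It was lower by at least 2.82-fold without HA-GATA3 and by at least 9.88-fold with it, against a floor of 3 counts per library (edgeR FDR = 0.0477 and 0.0134). Il4 had its higher counts with T-bet, with 0 and 0 in GFP + Plum, 3 and 12 in T-bet + Plum, 0 and 12 in GFP + GATA3, and 25 and 23 in T-bet + GATA3. It was not called in the single T-bet comparisons (edgeR FDR = 0.140 and 0.254) but was called up for the averaged T-bet effect (FDR = 0.0416) and in T-bet + GATA3 against GFP + Plum (FDR = 0.0496). Cxcr5, a chemokine receptor gene, was called down for the averaged effect (log2 FC -0.65, edgeR FDR = 0.0356), with log2 FCs of -0.65 and -0.66 in the single comparisons (FDR = 0.179 and 0.173). Il10 was not called in any of these. The median log2 FC of the 4 genes was -0.89 and -1.11, with Il22 at its fitted value or at its bound. Of 7 protease and receptor genes linked to SPINT2, 2 were tested and none was called by edgeR in either comparison, with medians of -0.85 and -0.73. The protease gene Hpn, 1 of these 2, had an unadjusted p below 0.05 in both (log2 FC -1.62 and -1.29, edgeR FDR = 0.233 and 0.208). In GFP + GATA3 against GFP + Plum and in T-bet + GATA3 against T-bet + Plum, edgeR called none of the 77 tested genes of these 9 lists, and 9 and 3 of them had an unadjusted p below 0.05 (11.7% and 3.9%, beside 3.7% and 3.78% of all genes).

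**Figure D4:**
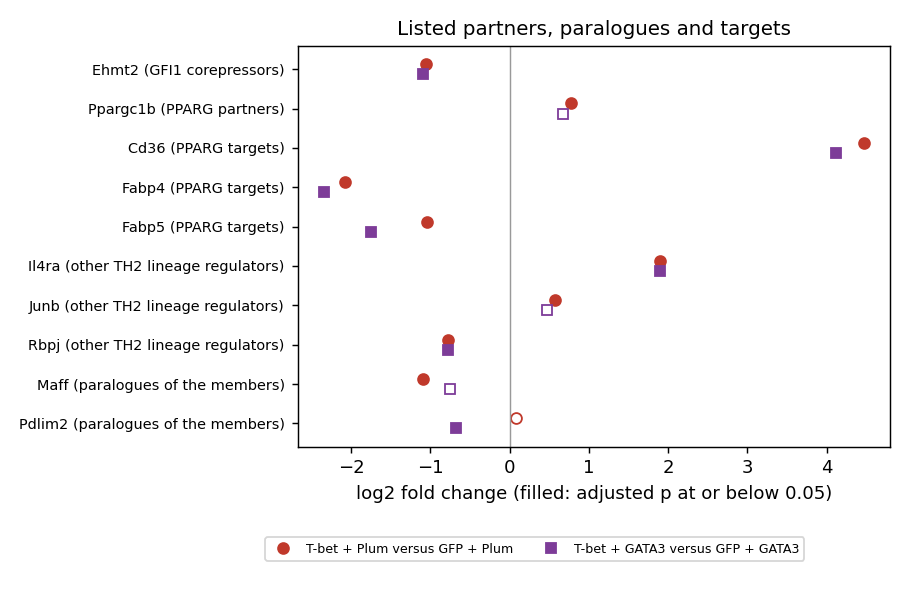
Log2 FC (x axis) of 10 of the listed genes called in at least 1 T-bet comparison (y axis, list in brackets). Il22, which had 0 counts in the lines with T-bet, is not drawn. Circles are T-bet + Plum against GFP + Plum and squares T-bet + GATA3 against GFP + GATA3, and filled symbols passed an FDR of 0.05. Symbols of a gene lie on the same side of 0 for each gene except Pdlim2.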

How the data were processed

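RNA-seq libraries from 4 EL4 lines (2 each, 8 in all) were analysed. Paired-end reads were checked with FastQC, trimmed with Trim Galore and assigned to transcripts with kallisto by the authors, who deposited estimated counts, TPM and effective transcript lengths for 136535 transcripts per library. The labels name mm10. The methods name Gencode M20 and the deposited values are labelled M18. Whether kallisto used strand is not given in the sources used here. Neither replicates nor lines were pooled in the deposited TPM and estimated counts.

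Estimated counts and TPM were summed per gene identifier, and estimated counts were rounded to whole counts. Positions come from Gencode M21 on GRCm38, in which 54079 of 54146 gene identifiers were found. Promoter windows come from RefSeq (GRCm38.p6), in which windows of 7 members were found. Counts of all 8 libraries were fitted together with edgeR 4.0.16 in R 4.3.3 (TMM, filterByExpr, quasi-likelihood test, Benjamini-Hochberg adjustment over 14791 genes), and a gene was called at an FDR of at most 0.05. Standard errors are approximate, from the size of the log2 FC over the root of the F statistic, and intervals (95%) use the moderated degrees of freedom. Precision follows depth, and totals per library spanned 8038565 to 16003519 estimated counts.

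The 9 members are described in every library. Of each list, genes called in at least 1 of the 4 comparisons that differ by 1 factor were named, up to 6 by smallest FDR, and for each called member the 3 protein-coding genes of mean CPM at least 5 with the highest r. Hpn, Rbbp4, Il4, Cxcr5, Il10, Cd3e, Cd3g and Thy1 were named after their values were seen. The result of 1 listed gene, which is counted in the totals over the lists, is not reported here. The members and lists were chosen with earlier results of these data known. Alternatives were DESeq2 1.42.0 and edgeR with and without length offsets, library size scaling, other filters, a replicate block, fits of the lines compared alone, each library left out, the study's threshold (log2 FC above 1.5 in size) and limma 3.58.1 on log2 TPM. On simulated data in which 200 of 14791 genes were changed by 2 on the log2 scale, edgeR recovered 98.5% in T-bet + Plum against GFP + Plum and 97.5% in GFP + GATA3 against GFP + Plum, and 6.64% and 3.94% of its calls were genes that had not been changed. The simulation gave all genes the same spread and changed only genes with higher counts. Its change was larger than the main fitted changes of Gfi1, Bhlhe40, Nfil3, Zfpm1 and Spint2. It was also larger than that of Pdlim4 in T-bet + GATA3 against GFP + GATA3. The recovery does not carry over to any of these. The 2 libraries of each line differed beyond sampling noise, with a chi-square of 10.9 to 32.7 per degree of freedom. Figures were drawn with matplotlib 3.10.9 in Python 3.11.15. ChIP-seq and ATAC-seq were not used here.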

Additional observations from a re-analysis of the deposited data

How the results depend on the processing

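The falls of Maf and the averaged T-bet effects on all 4 called members kept their direction under every alternative run, and the averaged effects their calls, except Gfi1 on the log2(TPM + 0.1) scale (FDR = 0.0736). The count of 4 called members became 2 in T-bet + GATA3 against GFP + Plum when only those 2 lines were fitted. Calls over all genes went from 721 of 14791 to 294 of 13924 there. Leaving out 1 library gave between 2 and 4 in T-bet + GATA3 against GFP + GATA3 and in T-bet + GATA3 against GFP + Plum (2 without replicate 1 of T-bet + GATA3), and between 3 and 4 in T-bet + Plum against GFP + Plum. In the first of these comparisons it was 2 without either T-bet + Plum library, either GFP + GATA3 library or replicate 1 of T-bet + GATA3. A lone library left in a line was assumed to vary like the others. In each fit with 2 members called, fewer of all genes were called than in the main fit too. Without a filter on low counts 1 member, Nfil3, was called in GFP + GATA3 against GFP + Plum and for the averaged GATA3 effect. There 293 and 373 of 30928 genes were called. At the study's threshold 3 members were called in each single T-bet comparison, without Bhlhe40. The share of all genes at that threshold was not counted.

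On the TPM scale the limma FDRs of Gfi1 were between 0.172 and 0.255 in the single T-bet comparisons, that of Bhlhe40 was 0.0671 in T-bet + Plum against GFP + Plum with log2(TPM + 0.1), and that of Pdlim4 was 0.0806 in T-bet + GATA3 against GFP + GATA3. Values near 0 changed sign. The interaction of Gfi1 was -0.059 with the replicate block, -0.17 and -0.21 by limma on TPM, and between -0.61 and 0.49 with 1 library left out. The averaged T-bet effect on Nfil3 was -0.028 and -0.026 by limma and between -0.074 and 0.22 with 1 library left out, and its permutation difference was -0.027 on TPM and between -0.13 and 0.22. In GFP + GATA3 against GFP + Plum, Gfi1 was between -0.17 and 0.92 and Pdlim4 between -0.67 and 0.28. The cause was not tested.

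The sources used here do not tie replicate numbers to harvest days. Libraries sharing a number deviated from the means of their lines with a correlation r above 0.1 in 4 of 6 pairs of lines (0.177 to 0.344) and of 0.0861 and -0.0564 in the others, so the pairing was not settled. With replicate number as a block, 4 members were again called in each T-bet comparison and 0 in each GATA3 comparison, and the count over all genes in T-bet + Plum against GFP + Plum went from 917 to 1440 (from 854 to 1379 in T-bet + GATA3 against GFP + GATA3). Over all genes, calls for GFP + GATA3 against GFP + Plum were 3 by edgeR, 56 by DESeq2 and 293 without a filter. With 2 libraries a line, and 2 to 12 counts for Spint2, effects of any size within a printed interval remain compatible with the data.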

Other observations

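Several members overlap a gene on the opposite strand, and these partners were mostly silent. Gm15655, antisense to Maf, had 0 estimated counts in all 8 libraries, including those in which Maf was at its highest. A430072P03Rik, on the strand opposite to Gfi1, had 8 and 10 estimated counts in GFP + Plum, 11 and 28 in T-bet + Plum, 6 and 21 in GFP + GATA3, and 22 and 22 in T-bet + GATA3. In CPM this was between 1.37 and 2.38 with T-bet and between 0.495 and 1.33 without it. These ranges nearly touched, since 1.37 CPM rested on 11 counts and 1.33 CPM on 21, and the difference was not tested. Since the use of strand in counting is not given in the sources used here, fragments of A430072P03Rik and of Gfi1 may not be separable. The antisense gene 0610040F04Rik at Bhlhe40 had 0 counts in 5 libraries and at most 3 in the others. Gm44079 at Pparg had 2 counts in replicate 2 of T-bet + Plum and 0 elsewhere.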
